A study of Homo sapiens with 10 samples.

Results

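The genes described here are 10 genes whose transcripts are used to recognise the myeloid lineage, measured in an acute lymphoblastic leukemia line of B-cell precursors. They were taken as a list of symbols (SPI1, CEBPA, CEBPB, CD33, CSF1R, CSF3R, FUT4, MPO, LYZ and CD14) and matched by GENCODE to the Ensembl identifiers of the count files. Each of the 10 symbols matched 1 identifier of 63677 in all. The question was whether lines that had become insensitive to venetoclax (VEN) drifted towards a myeloid pattern of expression.

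Myeloid cells form from progenitors in which the transcription factor PU.1, the product of SPI1, acts together with factors of the C/EBP family. PU.1 is also used by B-cell precursors, so its transcript alone does not separate the lineages, while C/EBP alpha, growth factor receptors such as those for M-CSF and G-CSF, and granule proteins such as myeloperoxidase mark myeloid commitment. Leukemias with a rearrangement of KMT2A, to which RS4;11 belongs, are known for switches between the lymphoid and the myeloid lineage.

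RNA sequencing had been done on 10 lines derived from RS4;11. The 5 VENins lines had been exposed in parallel to rising concentrations of VEN, a BCL-2 inhibitor, and the 5 VENsens lines to the solvent DMSO. All lines descend from the same parental cell line. Drug was present during growth only for the VENins group, so its earlier presence and the acquired insensitivity cannot be told apart. The counts on genes were between 20631907 and 28323643 per VENsens line and between 21145316 and 25394653 per VENins line. Levels are given as CPM, the counts scaled to a common library size, after TMM normalization, a scaling that makes libraries comparable.

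VENins line 4 stood apart from the rest of its group. Over 14614 genes with a mean of at least 1 CPM, the deviations of each line from the mean of the 10 lines were correlated. Such centring alone gives unrelated lines an r of about -0.111. The mean Pearson r of VENins line 4 with the other VENins lines was -0.209 and with the VENsens lines 0.0192, whereas the other VENins lines had values between -0.349 and -0.221 with the VENsens lines. Values without lines 4 or without lines 5 are given below for several genes.

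**Figure D1:**
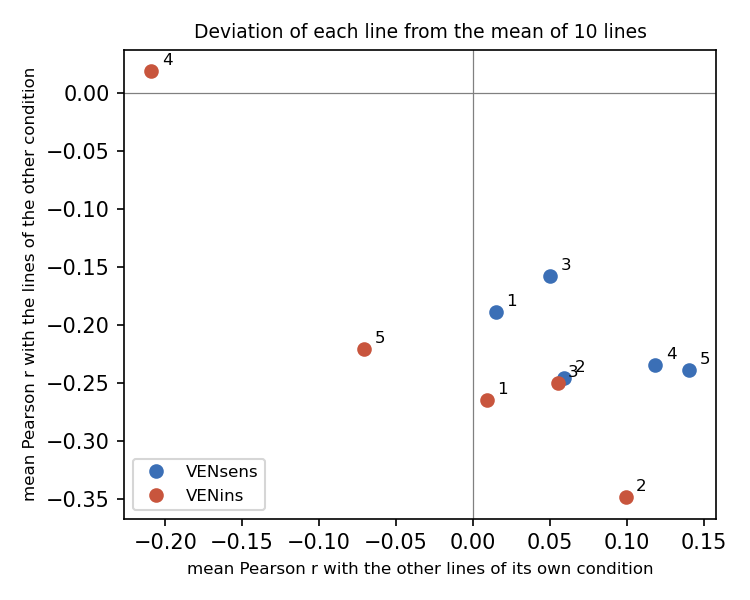
Mean Pearson r of each line's deviation from the mean of 10 lines with the other lines of its own condition (horizontal axis) and with the lines of the other condition (vertical axis), over 14614 genes, with points numbered by line. VENins line 4 lies at the upper left, at -0.209 and 0.0192.

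The label of a B-cell precursor was checked against lineage markers, with levels divided by exon length so that genes can be compared roughly. The length was that of all annotated exons of a gene joined, which can exceed that of the transcripts present. Of 18 B-lineage genes, 16 had enough counts to be tested. The surrogate light chain genes IGLL1 and VPREB1 were at 799 ± 81.3 and 782 ± 60.5 CPM per kb (SD, n = 10), both above 99.9% of 19376 protein-coding genes. CD79A, a signalling chain of the B-cell receptor, was at 376 ± 43.2 CPM per kb, and TCF3, which codes for the E proteins of early B cells, at 131 ± 14.5 CPM per kb. The summed level of the B-lineage list was between 4935 and 5068 CPM in VENsens lines and between 4826 and 5512 CPM in VENins lines, with TCF3 as its most abundant gene. Other genes of the list were low, with BLNK at 0.870 ± 0.656, MS4A1 at 0.180 ± 0.0652 and MME at 0.109 ± 0.0282 CPM per kb, and the means of MS4A1 and MME lay in the range of CD33. CD34, a marker of progenitors, had 7 counts in all VENsens lines and 1 in all VENins lines. CD24 was listed at 0, and whether the annotation or the counting left its reads out cannot be told from the files, so this 0 was not read as a level. BLNK, MS4A1, MME, CD34 and CD24 were chosen after their values were seen.

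Other lineages left few transcripts, with exceptions. Of 9 T and NK genes only NKG7 and CD3E were tested, and NKG7, a granule protein gene of cytotoxic cells, made up most of the summed 46.5 to 53.7 CPM in VENsens lines and 49.4 to 65.1 CPM in VENins lines. Its level was 55.2 ± 5.52 CPM per kb, against 0.302 ± 0.0424 for CD3E, 0.0527 ± 0.0454 for CD247 and 0.0223 ± 0.0168 for GNLY. The quasi-likelihood test of edgeR called 0 of the 2, against 0.197% of all genes tested, with 0 at an unadjusted p under 0.05, against 16.2%. DESeq2 called 0 of the 1 gene that it gave an adjusted p, against 1.69% of all genes. Of 8 erythroid and megakaryocyte genes only ITGA2B and GP9, which code for platelet receptor subunits, were tested. Their levels were 6.53 ± 1.56 and 3.90 ± 0.543 CPM per kb, while the erythroid regulators KLF1 and GATA1 were at 0.0493 ± 0.0225 and 0.0139 ± 0.0148 CPM per kb. In that list edgeR called 0 of 2 and had 1 at an unadjusted p under 0.05, with the same shares over all genes, 0.197% and 16.2%. That gene was ITGA2B, whose log2 fold change was -0.48 (standard error 0.099), at an adjusted p of 0.0611, and DESeq2 called it, 1 of 2 against 1.69% of all genes. Genes at 0 in every line included KLRD1, PF4 and PPBP.

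**Figure D2:**
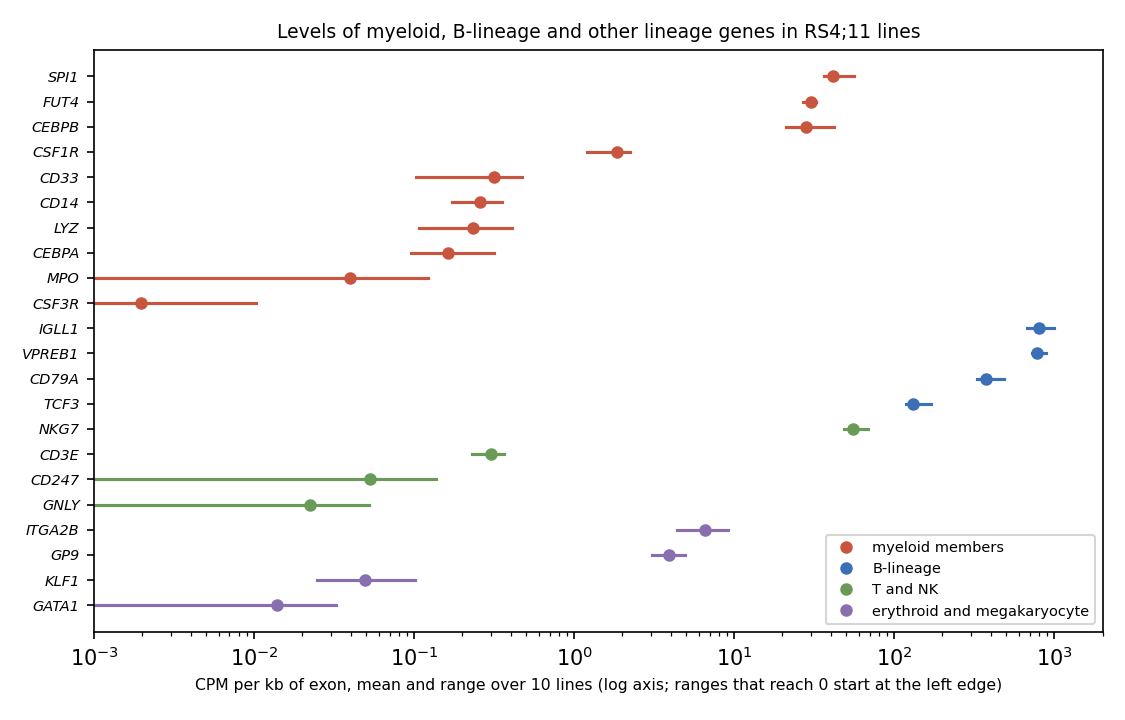
CPM per kb of exon on a log axis for the 10 myeloid lineage genes and for the 4 genes with the highest level in the B-lineage, the T and NK and the erythroid and megakaryocyte lists. Points are means and bars run from the lowest to the highest of 10 lines. SPI1, FUT4 and CEBPB lie near the upper end of the myeloid genes at 41.2, 30.2 and 27.9 CPM per kb, below the B-lineage genes.

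Among the 10 myeloid lineage genes themselves, the levels differed widely, and the ranges of many overlapped. SPI1 was highest at 41.2 ± 5.81 CPM per kb (SD, n = 10), above 95.2% of protein-coding genes. FUT4 followed at 30.2 ± 1.94 and CEBPB at 27.9 ± 6.03 CPM per kb, and the ranges of these 2 genes over the 10 lines overlapped. The range of CEBPB, 21.1 to 41.7 CPM per kb, also reached into that of SPI1, 36.1 to 56.0 CPM per kb. CSF1R was at 1.84 ± 0.269 CPM per kb, apart from its neighbours on both sides. The next 4 genes could not be put in order by their ranges, which overlapped from one to the next. CD33 was at 0.316 ± 0.110, CD14 at 0.256 ± 0.0701, LYZ at 0.234 ± 0.0979 and CEBPA at 0.163 ± 0.0640 CPM per kb. MPO, at 0.0394 ± 0.0363, and CSF3R, at 0.00196 ± 0.00351 CPM per kb, had lines without a count. The range of MPO, 0 to 0.122 CPM per kb, reached into that of CEBPA, whose lowest line was at 0.0947. It also held that of CSF3R, 0 to 0.0103 CPM per kb. In bulk RNA, fewer cells that carry a transcript and less of it per cell cannot be told apart.

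**Figure D3:**
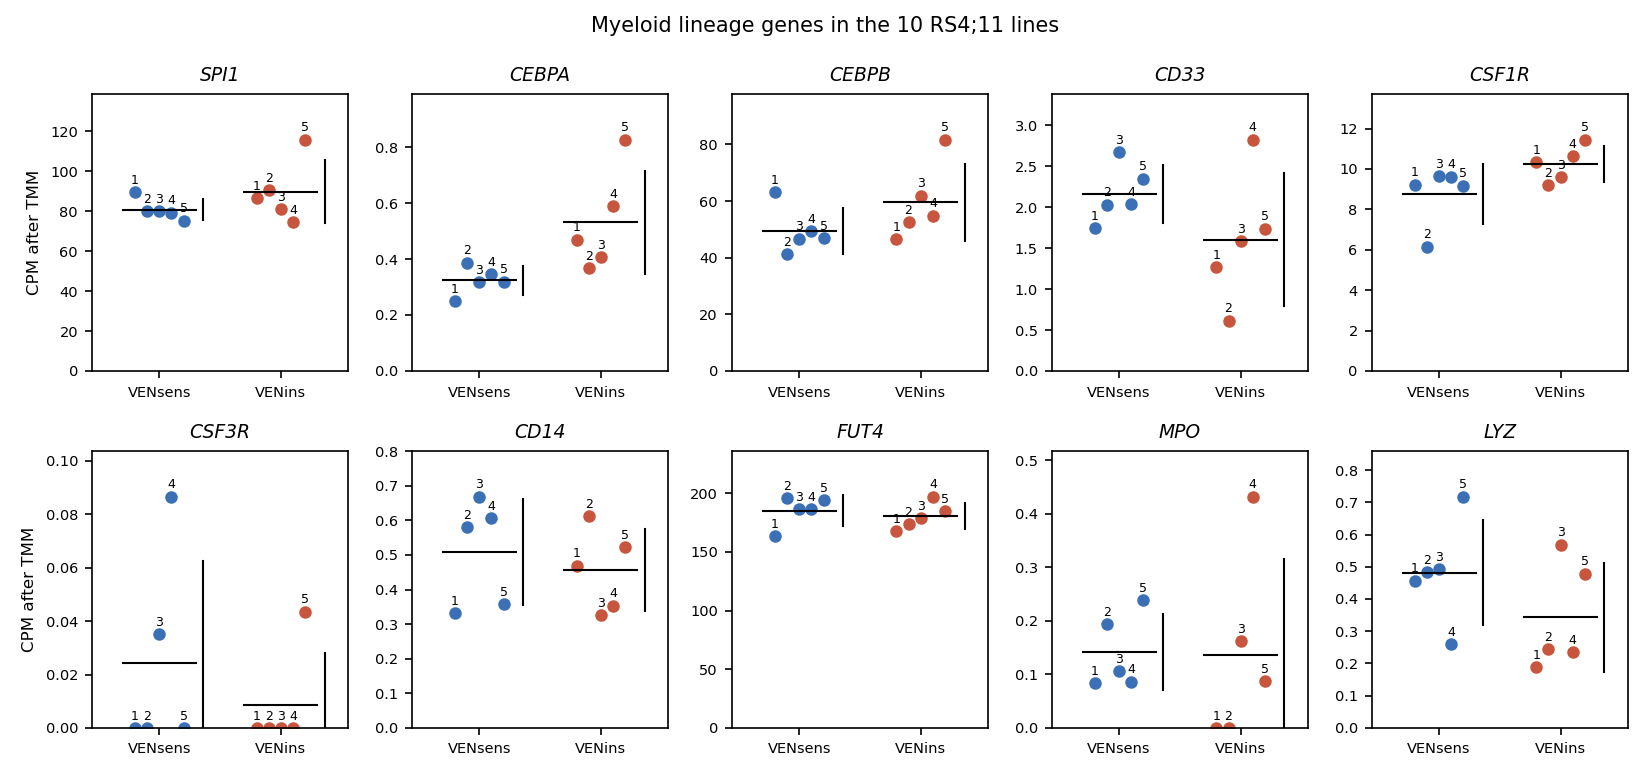
CPM after TMM of the 10 myeloid lineage genes in each line, with points numbered by line, horizontal bars for the mean and vertical bars for 1 SD (n = 5 lines a group), each panel on its own axis from 0. The groups overlap in every panel.

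The transcription factors were examined first. SPI1 (ENSG00000066336) was at 89.5, 80.1, 80.0, 79.2 and 75.3 CPM in VENsens lines 1 to 5 and at 86.7, 90.5, 80.9, 74.7 and 116 CPM in VENins lines 1 to 5. VENins line 5 was the highest of the 10 and VENins line 4 the lowest, so that the groups overlapped. The means were 80.8 ± 5.23 and 89.7 ± 15.8 CPM (SD, n = 5), and the log2 fold change of VENins over VENsens was 0.14 (standard error 0.085), at an adjusted p of 0.449 in edgeR's quasi-likelihood test. Without lines 5, that is line 5 of both groups, the log2 fold change was 0.015, with a standard error of 0.059.

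CEBPB (ENSG00000172216) codes for a C/EBP factor that is induced in macrophages and by inflammatory signals. It was at 63.1, 41.2, 46.7, 49.3 and 47.0 CPM in VENsens lines 1 to 5 and at 46.6, 52.6, 61.9, 54.9 and 81.6 CPM in VENins lines 1 to 5. VENins line 5 was again the highest, 4 of 5 VENins lines lay above the VENsens mean, and VENsens line 1 lay above all VENins lines but line 5. The log2 fold change was 0.26 (standard error 0.12, 95% confidence interval 0.0047 to 0.51), with an unadjusted p of 0.0464 and an adjusted p of 0.299 in edgeR's test. The adjusted p in edgeR was 0.0492 without lines 1, at a log2 fold change of 0.43, and 0.0160 without the filter on low counts. Over 13 alternatives it ranged from 0.0160 to 0.696, and without lines 5 the log2 fold change was 0.12. CEBPB-AS1, annotated on the opposite strand, is not counted separately in the files, and the library kit named in the labels does not mark strand.

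CEBPA (ENSG00000245848), whose product commits progenitors to the granulocyte and monocyte fates, was near the limit of detection. It had 6, 8, 9, 8 and 8 counts in VENsens lines 1 to 5, or 0.249, 0.387, 0.317, 0.346 and 0.319 CPM. The VENins lines had 10, 9, 10, 15 and 19 counts, or 0.469, 0.367, 0.406, 0.589 and 0.827 CPM. VENins lines 1, 3, 4 and 5 lay above every VENsens line, and VENins line 2 lay within their range. The gene did not pass the filter on low counts and was compared with a two-sided exact permutation test, which gave p = 0.0159, unadjusted, where the smallest p the design allows is 0.00794. The 95% Poisson interval of the summed counts was 0.229 to 0.439 CPM for 39 counts in VENsens lines and 0.407 to 0.678 CPM for 63 counts in VENins lines, for counting error only. With a pair of lines left out, 4 lines against 4, the exact p was between 0.0286 and 0.0571, and 0.0286 is the smallest that this number of lines allows. Without the filter, the log2 fold change of CEBPA was 0.70 (standard error 0.32), at an adjusted p of 0.397 in edgeR.

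For sequence context, 10 promoter windows of RefSeq (GRCh38.p14) were found for 7 of the 10 genes, CEBPA, CEBPB, CD33, CSF1R, CSF3R, FUT4 and CD14. Each window covers the 250 bases before a transcription start. The bases that precede any annotated exon are printed 5′ to 3′ on the strand of the gene, for the 5 windows with at least 200 such bases. They show the letters before the start of factors and receptors with high and with low levels. Capitals mark matches on either strand to 4 motifs, and none of the matches shown overlap one another. The core bound by PU.1 was searched as GAGGAA. The letters for C/EBP factors were TTGCAA. For the box named TATA, the search used TATAAA. For a GC box the letters were GGGCGG.
CEBPB, chr20:50190333-50190582, + strand: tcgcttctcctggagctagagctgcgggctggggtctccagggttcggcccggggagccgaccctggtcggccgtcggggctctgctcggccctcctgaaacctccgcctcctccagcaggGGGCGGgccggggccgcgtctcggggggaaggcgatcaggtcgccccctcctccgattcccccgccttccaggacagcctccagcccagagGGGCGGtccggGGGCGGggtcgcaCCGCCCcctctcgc
CEBPA, chr19:33302565-33302784, - strand: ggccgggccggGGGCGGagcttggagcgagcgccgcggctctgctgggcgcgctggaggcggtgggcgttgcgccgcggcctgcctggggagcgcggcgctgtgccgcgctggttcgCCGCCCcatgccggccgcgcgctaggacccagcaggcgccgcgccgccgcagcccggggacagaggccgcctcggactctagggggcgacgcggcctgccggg
CSF1R, chr5:150113373-150113615, - strand: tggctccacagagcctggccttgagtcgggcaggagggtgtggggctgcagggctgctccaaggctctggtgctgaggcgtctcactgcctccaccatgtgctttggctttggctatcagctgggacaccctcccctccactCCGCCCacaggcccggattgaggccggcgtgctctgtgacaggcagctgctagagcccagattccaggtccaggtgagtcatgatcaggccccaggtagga
CD33, chr19:51224830-51225063, + strand: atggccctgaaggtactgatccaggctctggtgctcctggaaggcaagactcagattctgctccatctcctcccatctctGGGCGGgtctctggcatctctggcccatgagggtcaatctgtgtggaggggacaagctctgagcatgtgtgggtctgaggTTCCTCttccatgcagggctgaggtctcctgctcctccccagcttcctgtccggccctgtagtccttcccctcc
CSF3R, chr1:36483315-36483564, - strand: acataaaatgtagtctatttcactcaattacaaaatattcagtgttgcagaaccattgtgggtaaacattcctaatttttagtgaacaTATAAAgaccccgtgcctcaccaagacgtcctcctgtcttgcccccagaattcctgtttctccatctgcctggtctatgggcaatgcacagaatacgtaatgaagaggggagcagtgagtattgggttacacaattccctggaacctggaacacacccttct
Among 34943 windows of the same length, GAGGAA was in 23.6%, TTGCAA in 4.74%, TATAAA in 10.8% and GGGCGG in 42.5%. Of the 10 windows of the myeloid lineage genes, GAGGAA was in 4, TTGCAA in 2, TATAAA in 3 and GGGCGG in 5, counted over the full 250 bases. In the printed pieces, CEBPB had 4 matches to the GC box, CEBPA 2 and CSF1R 1, while CD33 had 1 match each to the GC box and the PU.1 core and CSF3R 1 match to the box named TATA. Windows of other starts of the same genes are not printed, and the second window of CSF1R had 2 matches to the PU.1 core and that of CSF3R 1 match each to the PU.1 core and the C/EBP letters. A match describes these letters alone, and binding was not measured.

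The receptors came next. CSF1R (ENSG00000182578), the receptor for M-CSF that drives macrophage growth, was at 9.22, 6.15, 9.64, 9.61 and 9.16 CPM in VENsens lines 1 to 5 and at 10.3, 9.18, 9.59, 10.6 and 11.4 CPM in VENins lines 1 to 5. VENins lines 1, 4 and 5 lay above every VENsens line, and VENsens line 2 was far below the rest. The means were 8.76 ± 1.48 and 10.2 ± 0.888 CPM (SD, n = 5). The log2 fold change was 0.23 (standard error 0.097, 95% confidence interval 0.024 to 0.44), with an unadjusted p of 0.0310 and an adjusted p of 0.261 in edgeR's test. Without lines 2 it was 0.15. An intron of CSF1R holds the pseudogene RPL7P1 on the opposite strand, to which 73633 counts were assigned in all, although its exons do not overlap those of CSF1R.

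CD33 (ENSG00000105383), a sialic acid binding receptor of myeloid cells, was at 1.74, 2.03, 2.67, 2.03 and 2.35 CPM in VENsens lines 1 to 5 and at 1.27, 0.612, 1.58, 2.83 and 1.74 CPM in VENins lines 1 to 5. VENins line 4 was the highest of the 10, and the other 4 VENins lines were below every VENsens line, by a small margin for line 5. The log2 fold change was -0.48 (standard error 0.23, 95% confidence interval -0.97 to 0.0050, adjusted p = 0.314 in edgeR's test). Without lines 2 the log2 fold change was -0.27, and without lines 4 it was -0.78 with an adjusted p of 0.0763, the range of adjusted p over 12 alternatives being 0.0702 to 0.772.

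CD14 (ENSG00000170458), the lipopolysaccharide coreceptor of monocytes, had between 8 and 19 counts a line. Its level was 0.332, 0.581, 0.668, 0.606 and 0.359 CPM in VENsens lines 1 to 5 and 0.469, 0.612, 0.325, 0.353 and 0.522 CPM in VENins lines 1 to 5. The groups lay across the same range. The log2 fold change was -0.17 (standard error 0.30), at an adjusted p of 0.830 in edgeR's test, and it was 0.057 without lines 3. CSF3R (ENSG00000119535), the receptor for G-CSF, had 3 counts in all VENsens lines and 1 in all VENins lines. These gave 0.0244 ± 0.0380 and 0.00870 ± 0.0195 CPM (SD, n = 5), with p = 0.722 in the two-sided exact permutation test, so that no difference was detectable at this depth.

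FUT4 (ENSG00000196371) codes for the fucosyltransferase that makes the carbohydrate antigen CD15 of granulocytes. In VENsens lines 1 to 5 it was at 163, 196, 186, 187 and 194 CPM, and in VENins lines 1 to 5 at 167, 174, 179, 197 and 185 CPM. It was the most even of the 10 genes, with a coefficient of variation of 6.42% over 10 lines and a highest line 1.21 times the lowest. The log2 fold change was -0.037 (standard error 0.054, 95% confidence interval -0.15 to 0.078, adjusted p = 0.790 in edgeR's test). Exons of FUT4 overlap those of PIWIL4 on the same strand, a gene with 9226 counts, so that the reads of the shared part may have been left uncounted.

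The granule and secreted enzymes were close to 0. LYZ (ENSG00000090382), which codes for lysozyme, had 59 counts in all VENsens lines and 41 in all VENins lines. It was at 0.457, 0.484, 0.493, 0.260 and 0.717 CPM in VENsens lines 1 to 5 and at 0.188, 0.245, 0.569, 0.235 and 0.479 CPM in VENins lines 1 to 5. VENins lines 1, 2 and 4 lay below every VENsens line, and the log2 fold change was -0.47 (standard error 0.30), at an adjusted p of 0.470 in edgeR's test. It was -0.72 without lines 3 and -0.33 without lines 1. MPO (ENSG00000005381), which codes for myeloperoxidase of the azurophilic granules, had 17 counts in each group. In VENins lines 11 of the 17 counts came from line 4, which was at 0.432 CPM, while lines 1 and 2 had no count. The means were 0.142 ± 0.0706 and 0.136 ± 0.179 CPM (SD, n = 5), with p = 0.944 in the two-sided exact permutation test.

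Of the 10 myeloid lineage genes, 7 passed the filter on low counts, and edgeR's quasi-likelihood test called 0 of these 7 at a Benjamini-Hochberg adjusted p under 0.05. Of all 16756 genes tested it called 33, or 0.197%. At an unadjusted p under 0.05 there were 2 of the 7, CEBPB and CSF1R, both with higher means in VENins lines, against 2711 or 16.2% of all genes tested. DESeq2 also called 0, of the 4 that it gave an adjusted p, against 217 of 12857 genes or 1.69%. Without the filter on low counts edgeR called CEBPB, 1 of the 10, against 664 of 32884 genes or 2.02%. Without lines 1 it called CEBPB, 1 of 7, against 57 of 16776 genes or 0.34%. The groups overlapped for each of the 10, while the CPM of 781 of the 16756 genes, or 4.66%, did not overlap between groups.

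The signs of the 7 tested genes were mixed. SPI1, CEBPB and CSF1R had a positive log2 fold change and CD33, CD14, FUT4 and LYZ a negative one, which for CD14 turned without lines 3. The median over the 7 was -0.037, against 0.0035 over all genes tested. The interval was narrowest for FUT4, from -0.15 to 0.078, and the intervals of CD14 and LYZ, of which no line had more than 19 counts, ran from -0.81 to 0.47 and from -1.12 to 0.18.

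**Figure D4:**
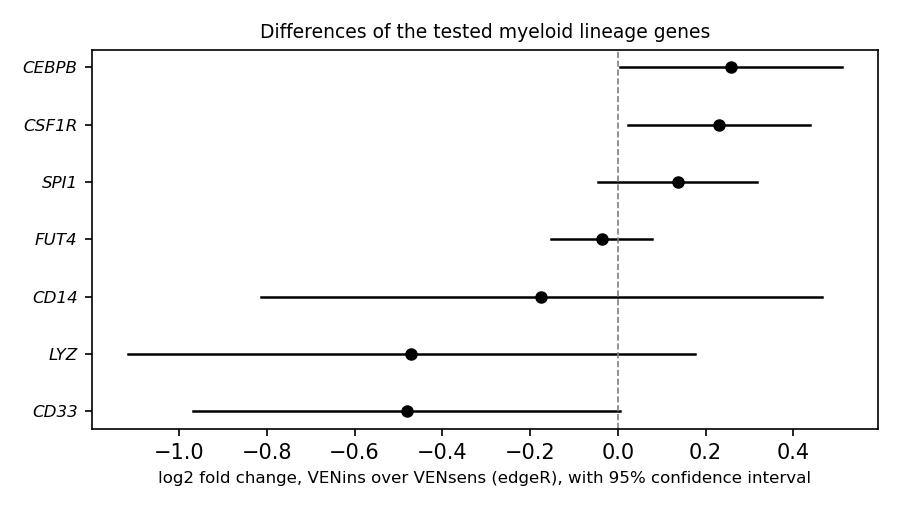
Log2 fold change of VENins over VENsens with its 95% confidence interval in edgeR's quasi-likelihood fit for the 7 tested genes. The intervals of CEBPB, 0.0047 to 0.51, and CSF1R, 0.024 to 0.44, lie above 0, and both adjusted p-values are above 0.05.

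A wider set of 72 myeloid genes in 5 lists was read in the same fit. Of these 36 were tested, and edgeR called 0 of them, against 0.197% of all genes tested. An unadjusted p under 0.05 was found for 14 of the 36, against 16.2% of all genes tested. Of these 14, 4 had higher and 10 lower means in VENins lines, against 1306 higher and 1405 lower among all genes tested. DESeq2 called 2 of the 27 that it gave an adjusted p, against 1.69% of all genes, ID2 with a higher and CSPG4 with a lower level in VENins lines. The median log2 fold change of the 36 was -0.097, against 0.0035 over all genes tested, and 4 of the 36, all lower in VENins lines, had groups that did not overlap, against 4.66% of all genes tested. In all, 15 genes were listed at 0 in every line, among them CSF2RA, IL3RA, CCR2, CLEC7A, MRC1, TYROBP, AIF1, FCN1, MNDA, PRTN3, RNASE2, S100A12, S100A8 and S100A9. A count of 0 over the 10 lines allows a level of up to 0.0125 CPM, for counting error only. CSF2RA and IL3RA lie in the region shared by the X and Y chromosomes, where 13 of 18 protein-coding genes were at 0 and the highest had 32 counts in all, so their 0 was not read as a level.

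Among 14 further myeloid transcription factors, 10 were tested, with a median log2 fold change of -0.065. Of these, 3 with higher and 4 with lower means in VENins lines had an unadjusted p under 0.05, against 16.2% of all genes tested. MYB, a factor of progenitors, was at 109 ± 6.20 CPM per kb and CEBPG, a C/EBP factor found in many tissues, at 41.1 ± 2.31 CPM per kb (SD, n = 10). ID2, an inhibitor of E proteins, was at 5.23, 6.10, 4.75, 5.63 and 4.54 CPM in VENsens lines 1 to 5 and at 10.7, 10.8, 7.56, 4.87 and 11.7 CPM in VENins lines 1 to 5. VENins line 4 lay within the VENsens range and the other 4 VENins lines above it. Its log2 fold change was 0.76 (standard error 0.16), with an adjusted p of 0.0665 in edgeR, of 0.00989 in DESeq2 and of 0.000193 in edgeR without lines 4. The adjusted p of ID2 over 13 alternatives ranged from 5.67e-09 to 0.484.

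EGR1 and EGR2, immediate early genes that also take part in monocyte differentiation, were lower in each VENins line than in any VENsens line. EGR1 was at 5.44 ± 0.723 and 3.63 ± 0.420 CPM (SD, n = 5), a fold change of -0.58 on the log2 scale (standard error 0.13), with an adjusted p of 0.0783 in edgeR. EGR2 was at 1.72 ± 0.426 and 1.01 ± 0.183 CPM, a fold change of -0.75 on the log2 scale (standard error 0.20), with an adjusted p of 0.0991 in edgeR. Neither passed the threshold. Of the 13 alternatives for EGR1, 5 gave an adjusted p under 0.05, in a range from 0.000744 to 0.484, and of 12 for EGR2, 2 did, in a range from 0.00695 to 0.560.

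Among 7 cytokine receptors, 4 were tested, with a median log2 fold change of 0.0094. FLT3, the receptor of early progenitors, was at 74.3 ± 4.63 CPM per kb and IFNGR1, a chain of the interferon gamma receptor, at 12.5 ± 1.09 CPM per kb (SD, n = 10). CSF2RB, the common chain of the receptors for GM-CSF, IL-3 and IL-5, was the only one with an unadjusted p under 0.05. Over all genes tested the share was 16.2%. The mean of CSF2RB was 52.4 ± 3.59 CPM in VENsens lines against 47.6 ± 4.04 CPM in VENins lines (SD, n = 5), a fold change of -0.14 on the log2 scale (standard error 0.066), with an adjusted p of 0.304 in edgeR. The log2 fold change was -0.092 without lines 2 and -0.20 without lines 5.

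Of 26 surface genes, mainly of monocytes and granulocytes, 12 were tested, with a median log2 fold change of -0.11. An unadjusted p under 0.05 was found for 1 with a higher and 3 with lower means in VENins lines. This compares with 16.2% of all genes tested. CSPG4, which codes for the NG2 antigen known from leukemias with a KMT2A rearrangement, was at 18.6 ± 2.69 CPM per kb and the inhibitory receptor LILRB4 at 11.3 ± 2.26 CPM per kb (SD, n = 10). CSPG4 was at 169, 166, 168, 172 and 175 CPM in VENsens lines 1 to 5 and at 129, 113, 132, 172 and 151 CPM in VENins lines 1 to 5. VENins line 4 was again within the range of the VENsens lines. The log2 fold change was -0.30 (standard error 0.070), at an adjusted p of 0.0836 in edgeR, and without lines 4 it was -0.38 with an adjusted p of 0.00711, in a range over 13 alternatives from 0.000235 to 0.486. LILRB4 was at 54.3, 58.9, 59.4, 66.6 and 105 CPM in VENins lines 1 to 5 and between 68.7 and 80.1 CPM in VENsens lines, so that 4 VENins lines were below and line 5 above every VENsens line. Its log2 fold change was -0.15, and it was -0.046 without lines 1 and -0.33 without lines 5.

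The integrin genes ITGB2 and ITGAX of the same list had lower means in VENins lines and did not pass the threshold. ITGB2, the beta chain shared by leukocyte integrins, was at 32.1 ± 1.26 CPM in VENsens lines against 26.5 ± 2.28 CPM in VENins lines (SD, n = 5), with groups that did not overlap. Its log2 fold change was -0.28 (standard error 0.073), at an adjusted p of 0.0991 in edgeR, and 4 of 13 alternatives gave an adjusted p under 0.05, in a range from 0.0110 to 0.518. ITGAX, the integrin alpha chain CD11c, was at 0.863 ± 0.162 and 0.388 ± 0.208 CPM, a fold change of -1.14 on the log2 scale (standard error 0.28), with an adjusted p of 0.0967 in edgeR, on 106 counts in all VENsens and 47 in all VENins lines. Of its 11 alternatives 2 were under 0.05, in a range from 0.00279 to 0.484.

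**Figure D5:**
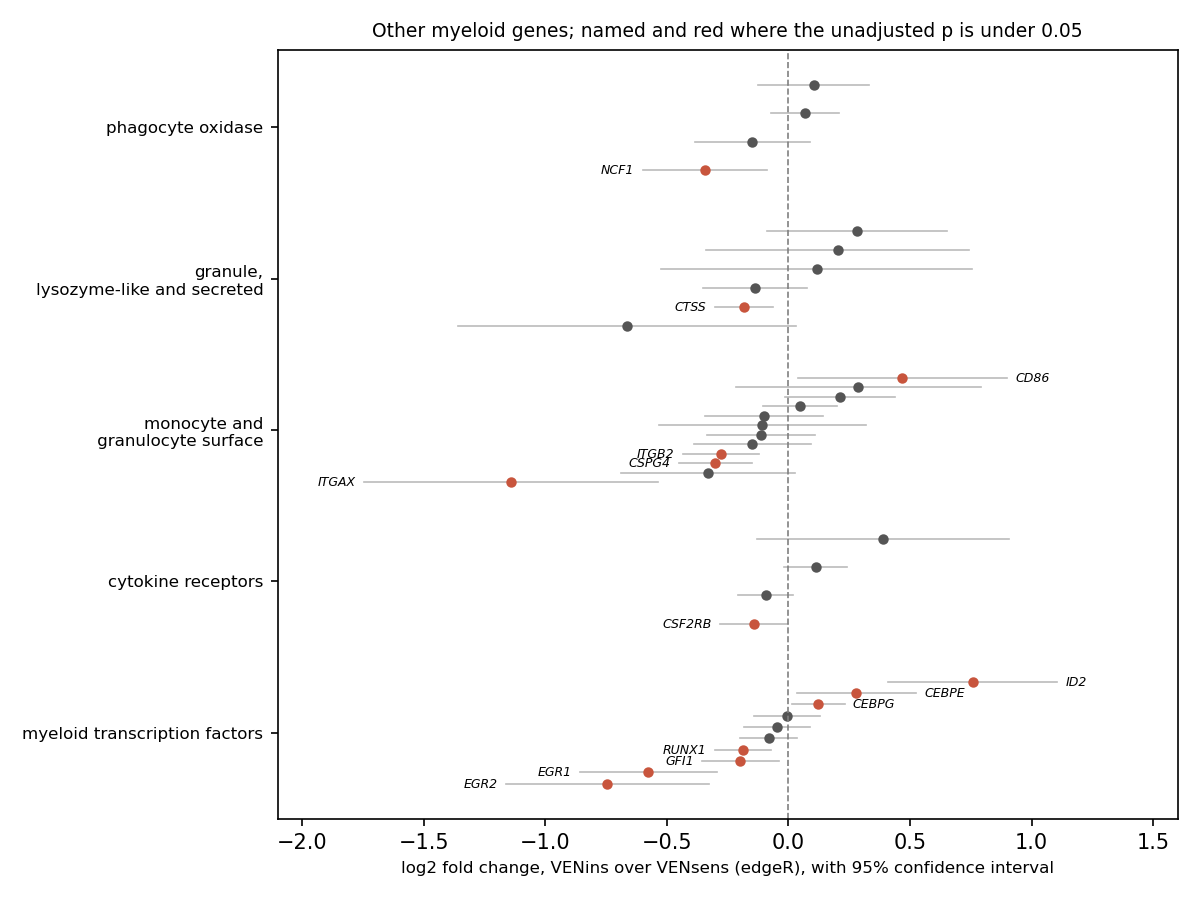
Log2 fold change of VENins over VENsens with its 95% confidence interval in edgeR's fit for the 36 tested genes of the 5 wider myeloid lists. The 14 genes with an unadjusted p under 0.05 are red and named, and 10 of them lie below 0.

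Of 20 genes for granule and secreted products, 6 were tested, with a median log2 fold change of -0.011. CTSS alone had an unadjusted p under 0.05, against 16.2% of all genes tested. The cathepsin genes CTSS and CTSD, lysosomal proteases that B cells also express, were at 14.6 ± 1.26 and 9.39 ± 1.36 CPM per kb (SD, n = 10). CTSS had groups that did not overlap, at 65.5 ± 4.04 and 57.7 ± 2.94 CPM (SD, n = 5). This was a fold change of -0.18 on the log2 scale (standard error 0.057), with an adjusted p of 0.146 in edgeR. AZU1, a protein of azurophilic granules, was at 0.494 ± 0.130 and 0.307 ± 0.124 CPM (adjusted p = 0.331 in edgeR), and CST3, a secreted protease inhibitor, at 4.43 ± 0.563 and 5.50 ± 1.84 CPM (adjusted p = 0.448 in edgeR). VENins line 5 was the highest line for CST3 at 8.40 CPM, and its log2 fold change of 0.28 was 0.085 without lines 5 and 0.47 without lines 1.

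Of 5 genes of the phagocyte oxidase, 4 were tested, with a median log2 fold change of -0.040. NCF1 alone had an unadjusted p under 0.05, against 16.2% of all genes tested. NCF4 and CYBA, which code for a cytosolic and a membrane subunit, were at 80.7 ± 6.08 and 34.9 ± 6.80 CPM per kb (SD, n = 10). CYBB, the catalytic subunit that phagocytes need for the oxidative burst, had 9 counts in all VENsens and 5 in all VENins lines. NCF1 was at 7.18 ± 0.573 and 5.66 ± 0.837 CPM (SD, n = 5), a fold change of -0.34 on the log2 scale (standard error 0.12), with an adjusted p of 0.183 in edgeR. Without lines 1 the log2 fold change of NCF1 was -0.22. Its value is uncertain because near-identical copies of the gene exist. CYBA was at 178 CPM in VENins line 5 and between 101 and 130 CPM in the other 9 lines, and without lines 5 its log2 fold change of 0.10 became -0.061.

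On the B-lineage side, edgeR called 1 of 16 tested genes, against 0.197% of all genes tested. It was PAX5, named after its values were seen. PAX5, the factor that holds B-cell identity and restrains myeloid genes, was at 781, 827, 712, 803 and 789 CPM in VENsens lines 1 to 5 and at 631, 583, 614, 676 and 646 CPM in VENins lines 1 to 5. The groups did not overlap. It fell by 0.31 on the log2 scale (standard error 0.053, adjusted p = 0.0272 in edgeR's quasi-likelihood test), and was lower in 5 of 5 VENins lines. The call was lost without lines 2, 3 or 5, where the log2 fold change was -0.26, -0.34 and -0.32 at adjusted p-values of 0.242, 0.0597 and 0.0647, in a range over 13 alternatives from 1.24e-06 to 0.242. The B-lineage list as a whole had 8 positive and 8 negative log2 fold changes with a median of 0.0058, and 6 of its 16 tested genes had an unadjusted p under 0.05, against 16.2% of all genes tested.

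VENins lines 4 and 5 were at the upper end of the 10 lines for some B-lineage genes and at the lower end for others. VENins line 4, the highest line for CD33, MPO and FUT4, was at 27.2 CPM for DNTT and 9.54 CPM for BLNK, where the highest of the other 9 lines were at 8.30 and 3.94 CPM. Of the 16 tested B-lineage genes it was the highest line for these 2 and the lowest for 3. VENins line 5, the highest for SPI1, CEBPB, CEBPA and CSF1R, was the highest line for 6 of the 16 and the lowest for 6. DNTT was chosen after its values were seen, as was BLNK. The part of these lines in the differences was not tested beyond leaving them out.

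Over the 10 lines, SPI1 and CEBPB had a Pearson r of 0.739 with each other in log2 CPM, CEBPB and CSF1R of 0.614, and CD33 and FUT4 of 0.618. SPI1 had -0.419 with CD33 and -0.396 with FUT4. Without VENins line 5, over 9 lines, r was 0.286 for SPI1 with CEBPB, 0.496 for CEBPB with CSF1R, 0.621 for CD33 with FUT4 and -0.804 for SPI1 with CD33, so that the first rests on that line. It was -0.895 for SPI1 with FUT4. Among 11137 protein-coding genes with a mean of at least 1 CPM, the genes most like SPI1 were TCF3 (r = 0.993), SRPK3 (r = 0.981) and BLK (r = 0.980), with r of 0.975, 0.940 and 0.932 without VENins line 5. For CEBPB they were PRR7 (r = 0.968), OGFR (r = 0.959) and PATZ1 (r = 0.958), and for CSF1R they were PGAM5 (r = 0.968), TEDC2 (r = 0.961) and COA4 (r = 0.956). For CD33 they were PREX1 (r = 0.983), KANK3 (r = 0.967) and GPAT4 (r = 0.958), and for FUT4 they included ERCC3 (r = 0.857) and GALK2 (r = 0.856). These coefficients describe 10 libraries that share a parental line, and they were the highest among many genes.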

How the data were processed

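Counts per gene, deposited by the authors as 1 file per library without normalization, were used for all 10 libraries. The submitters' processing notes name bcl2fastq 2.20.0.422, Bowtie2 2.3.5.1, SAMtools 1.9 and HTSeq 0.9.1 and the build hg19. The strand setting of the counting is not given in the sources used here. Reads not counted on a gene were 45.8% to 47.3% of a library and were left out. Symbols and exon lengths came from GENCODE 29 (52526 of 63677 identifiers named).

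The fit used edgeR 4.0.16 and limma 3.58.1 under R 4.3.3, by filterByExpr (minimum count 10, minimum total 15), TMM and the quasi-likelihood F test with line number and condition as terms, and adjusted by Benjamini-Hochberg over all tested genes. Standard errors came from the F statistic. Genes under the filter were compared by two-sided exact permutation tests. DESeq2 1.42.0 was an alternative. Log2 CPM used a prior count of 2. Tables were made with pandas 2.3.3, numpy 2.4.6 and scipy 1.17.1 and plots with matplotlib 3.10.9, under Python 3.11.15. The fits were tested on simulated counts.

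The members and lists were chosen with earlier results of these data known. Named were all 10 members, and of each wider list the genes called, the 2 with the highest level per kb and the 3 with the smallest p. Of each lineage list the 4 with the highest level per kb were named, and for likeness the 3 genes with the highest Pearson r, although not each gene that this rule gives is printed. Alternatives were no line number term, DESeq2, RLE size factors, library size alone, no filter, at least 10 counts in every library, and each pair of lines left out. Added after the values were seen were VENins line 4 or 5 left out of the fit without line numbers, pairs left out for the genes under the filter, and correlations without VENins line 5.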

Additional observations from a re-analysis of the deposited data

Results flagged for a closer look

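Within each group of 5 lines, the highest or lowest value was examined by its gap to the nearest of the others, relative to the range of the group (Dixon's critical value 0.71). Of 20 groups, 3 held such a value, where chance gives about 1 in 20, a rate that does not apply to a group with a single count, such as CSF3R. CSF1R was at 6.15 CPM in VENsens line 2, below the 9.16 to 9.64 CPM of the other VENsens lines. FUT4 was at 163 CPM in VENsens line 1, below the 186 to 196 CPM of the other VENsens lines. CSF3R was at 0.0435 CPM in VENins line 5, which is 1 count, while the other VENins lines had 0.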

How the results depend on the processing

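The line numbers did not pair the samples, since the deviations from the group means of lines with the same number had correlations of -0.151, 0.053, -0.0107, -0.00369 and -0.111 over 14614 genes, and the line number was a term only because the study describes a paired analysis. With no replicate block edgeR called 149 genes, of which 49 were higher in VENins lines, in place of 33, of which 6 were higher. DESeq2 called 217 (67 higher), and 664 (231 higher) were called without the filter. With a pair of lines left out the count was between 6 and 331. With no replicate block it was 783 without VENins line 4 and 502 without VENins line 5, both added after seeing the data. Of the 10 myeloid lineage genes, 1 (CEBPB) was called without the filter, and 0 to 1 with a pair left out. With no replicate block edgeR called 0 of them, but EGR1 and ID2, 2 of the 36 tested genes of the wider myeloid lists. Over all genes this fit called 149 of 16756, and with the block 0 of the 36 were called. In edgeR's test without the block, the unadjusted p was 0.0502 for CEBPB and 0.0628 for CSF1R, both above 0.05. DESeq2 gave no adjusted p for CD33, CD14 and LYZ, while its unadjusted p was 0.0738, 0.770 and 0.337. Its default filter, which leaves genes of low mean count without an adjusted p, was in use.

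Of 456 values of 36 genes under alternatives, 412 kept direction and side of the threshold, 34 passed the threshold, 3 lost it and 7 reversed. With a pair left out the log2 fold change ranged from -0.34 to 0.057 for CD14, from -0.020 to 0.14 for CD79A, from -0.061 to 0.20 for CYBA and from -0.13 to 0.025 for GP9. Reversed were CD14 (0.057 without lines 3), CD79A (-0.020 without lines 5, -0.0038 with no replicate block and without VENins line 5), CYBA (-0.061 and -0.044 in the same settings) and GP9 (0.0027 without lines 2, 0.025 without lines 3). The difference in CPM with a pair left out was 0.133 to 0.265 for CEBPA, -0.0304 to 0.00208 for CSF3R and -0.0929 to 0.0418 for MPO, turning sign without lines 4 for CSF3R (0.00208) and without lines 1, 2 and 5 for MPO (0.0141, 0.0418 and 0.0314). Scaling by library size alone kept their direction. Without VENins line 5, added after seeing the data, the Pearson r of SPI1 with CSF1R was -0.00902 in place of 0.358. Depth limits CEBPA, CSF3R, MPO, CD14 and LYZ, where 3 counts in a library are worth 0.106 to 0.145 CPM.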
